A study of Mus musculus with 5 samples.

Results

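Strong T cell receptor (TCR) responders were 1257 barcodes among 22381 Cd3-positive, Foxp3-negative barcodes of the series, which holds 25623 barcodes in all. A barcode here is the tag of 1 droplet and is taken as 1 cell. Members had at least 500 unique molecular identifiers (UMIs, each 1 captured RNA molecule), at least 300 genes, at most 10% mitochondrial UMIs, no Foxp3 UMI, at least 1 UMI of Cd3d, Cd3e or Cd3g, and at least 1 UMI of 4 or more of 8 genes that TCR signals switch on: Nr4a1, Nr4a2, Nr4a3, Egr1, Egr2, Egr3, Irf4 and Il2ra. They are set beside silent cells, the 17389 Cd3-positive barcodes with no UMI of any of the 8. A further 3735 barcodes had 1 to 3 of the 8 and lie between.

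The series holds 5 samples, 1 per group: OT-II T cells with sKPC apCAF and OVA, OT-II T cells with rKPC apCAF and OVA, OT-II T cells with sKPC apCAF and DMSO, OT-II T cells with rKPC apCAF and DMSO, and OT-II T cells alone with no treatment. The CD4 T cells were isolated by negative selection, and their source was spleen of an OT-II animal that was naive. OT-II is a strain whose transgenic receptor recognises a peptide of ovalbumin (OVA) on MHC class II. The antigen-presenting cancer-associated fibroblasts (apCAF) were sorted from tumors of the clones named sKPC and rKPC. RNA was captured with the 10x Genomics 5' kit. The 2 matrices carry 3 and 2 barcode suffixes, while the labels name 2 and 3 samples for them, so no library can be tied to a group. The libraries are called Ga, Gb and Gc (first matrix) and Ha and Hb (second matrix), and no comparison between groups was made.

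Ligation of the TCR by peptide and MHC starts calcium, MAP kinase and NF-kB signals within minutes. NR4A and EGR factors are made first, and their amounts follow the strength of the signal. IRF4 and the IL-2 receptor alpha chain follow, and the cell then grows, raises amino acid uptake and ribosome production, secretes cytokines, and makes inhibitors that limit the same pathway. Because the 8 genes chose the members, their values describe the choice and support nothing here.

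All but 9 of the members lay in 2 libraries. Responders were 612 of 5102 Cd3-positive barcodes in Ga (12%, 95% Clopper-Pearson interval 11.1% to 12.9%) and 636 of 6282 in Gc (10.1%, 9.39% to 10.9%). Gb held 5 of 3027 (0.165%), Ha 3 of 4100 (0.0732%) and Hb 1 of 3870 (0.0258%). These intervals, and all others given, cover counting error only. In Ga and Gc the count of barcodes fell from none to 3 of the 8 genes and then changed little up to 7: Ga had 135 barcodes with 3 genes, 116 with 4, 164 with 5, 140 with 6, 134 with 7 and 58 with all 8, and Gc had 167, 153, 142, 146, 118 and 77. Barcodes with 3 genes lie just outside the rule and those with 4 just inside. In Gb, Ha and Hb no barcode had 7 or 8.

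**Figure D1:**
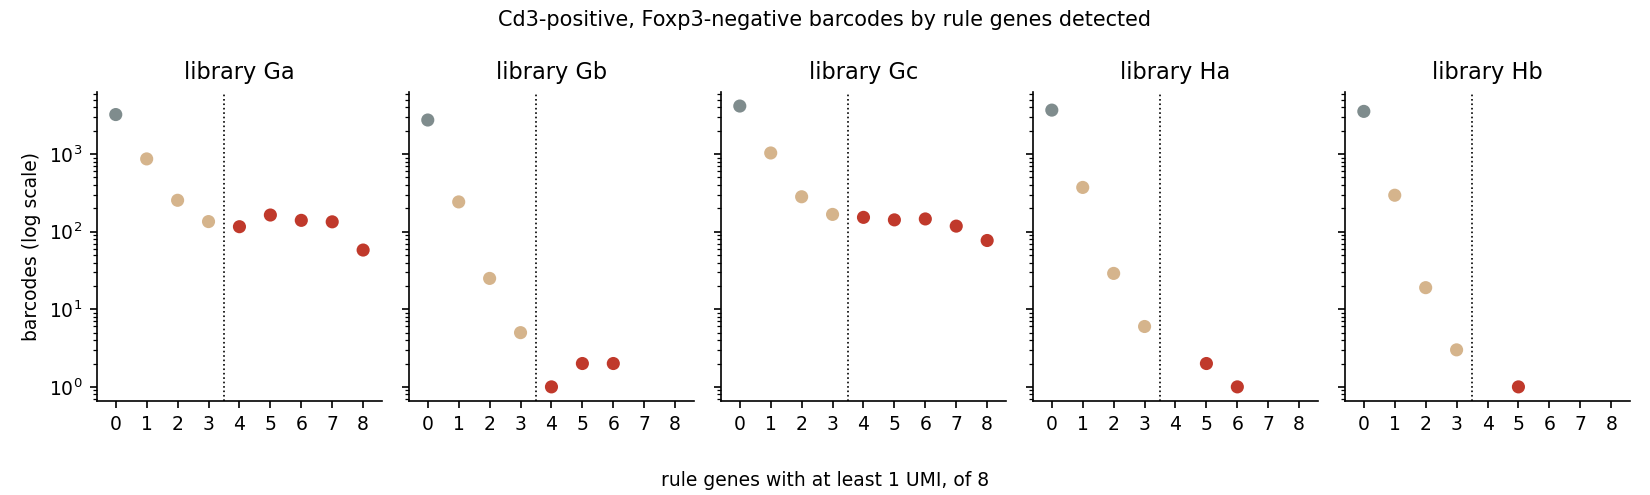
Number of Cd3-positive, Foxp3-negative barcodes (log scale) by how many of the 8 rule genes had at least 1 UMI, in each of the 5 libraries. Red points right of the dotted line are responders, grey points silent cells, tan points the barcodes between; only Ga and Gc hold a shelf of barcodes at 4 to 8 genes, with 612 and 636 responders.

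Among Ga responders, Nr4a1 was present in 93.1%, Irf4 in 93.3% and Il2ra in 92.8%, while Egr2 was present in 49.5% and Egr3 in 31.4%. The Gc shares were 90.6%, 91.7%, 90.4%, 49.8% and 34.6%. These shares follow from the rule and only describe the choice of members. Responders held more UMIs than silent cells, with a median of 11234 against 8321 in Ga and 10870 against 8131 in Gc, and a deeper cell passes a rule on detection more easily. At an equal 4000 UMIs per cell the median number of genes was 1878 in responders and 1885 in silent cells of Ga, and 1890 and 1881 in Gc. Barcodes above 2.5 times the median UMIs of their library, which can hold more than 1 cell, were 23 responders and 9 silent cells in Ga, and 51 responders and 23 silent cells in Gc. Ribosomal protein genes took 17.3% of UMIs in responders and 16.7% in silent cells of Ga, and 16.5% and 15.9% in Gc. Any pair of libraries had 2 to 14 barcodes in common, and no responder barcode of one was a responder barcode of another. No value below has a replicate, and none is tested.

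Levels are CPM (counts scaled to a common total) of the UMIs summed over the cells of a set in 1 library, and a ratio sets responders over silent cells of the same library. A gene is called higher or lower at a ratio of 2 or more in either direction, where the mean CPM of the 2 sets is at least 5. A gene low in 1 set can pass this filter through the other set alone, which favours a call. In Ga 14.9% of 9694 genes were higher and 18.5% lower in responders; in Gc 14.8% of 9732 were higher and 15.9% lower. In both libraries 1266 of 9552 genes (13.3%) were higher and 1419 (14.9%) lower, and the counts within gene lists below are read against those 2 shares. The median log2 ratio over all genes was -0.04 in Ga and -0.03 in Gc. Of 25 lists of response genes, 11 had a summed level at least 2-fold higher in both libraries and 5 at least 2-fold lower. As the same cells gave the 8 genes and all others, these ratios describe the members.

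Bcat1 and Spry1 were not part of the rule, but they were taken as markers with earlier results of these data known. Their values come from the same cells, so they describe the members and are no independent check of the choice. Bcat1, the cytosolic branched-chain aminotransferase (chromosome 6, 144993835 to 145076184, minus strand, GRCm38), had 311.9 CPM in responders and 1.495 CPM in silent cells of Ga, and 303.1 CPM and 1.26 CPM in Gc. That is 209-fold and 240-fold, from 2293 and 2413 UMIs in responders. At 4000 UMIs per cell, 49.4% of responders and 0.428% of silent cells of Ga held a Bcat1 UMI, against 48.5% and 0.309% in Gc. Spry1, an inhibitor of receptor-driven RAS signalling (chromosome 3, 37639947 to 37644598, plus strand), had 180.8 CPM and 1.60 CPM in Ga, and 166.9 CPM and 1.26 CPM in Gc. No UMI of Spry1 was found in 55 barcodes with B cell markers and no Cd3, which at a floor of 3 counts allows a share of up to 5.45% there at a median of 13377 UMIs. Bcat1 was held by 9 of them (16.4%), against 64.5% of Ga and 64.2% of Gc responders before thinning. At equal depth, 159 of the 605 Ga responders that were deep enough held both genes, where the product of the shares gives 108.2, and 139 in Gc did, where it gives 100.5.

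A Bcat1 promoter is shown because Bcat1 was second in the ranking of genes by the smaller of the 2 libraries' ratios and its window holds the letters TGANTCA, the motif that AP-1 factors such as FOS and JUN bind. The window runs from 250 bases before to 50 after the RefSeq start (chr6:145076108-145076407, minus strand, GRCm38.p6), and the capitals mark the match, 24 bases before the start.
Bcat1: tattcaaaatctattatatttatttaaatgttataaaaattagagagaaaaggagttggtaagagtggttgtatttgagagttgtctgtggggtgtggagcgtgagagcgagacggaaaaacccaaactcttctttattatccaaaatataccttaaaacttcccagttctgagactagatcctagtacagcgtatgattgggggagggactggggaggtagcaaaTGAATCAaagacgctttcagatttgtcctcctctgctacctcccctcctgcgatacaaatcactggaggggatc
A match on either strand was found for 3 of the 14 genes with a RefSeq promoter among the 15 of highest ratio (Bcat1, Glrp1 and Lif) and in 8.97% of 27025 genes with a RefSeq promoter. Bcat1 has 2 promoters in the table, and the other holds no match. A match is a stretch of letters and not a shown binding site.

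The 15 genes of highest ratio, each taken at its value nearest 0 over the 2 libraries, were Ccl4, Bcat1, Atf3, Spry1, Cdkn1a, Glrp1, Sema7a, Ccl3, Csf2, Lif, Rgs16, Pycr1, H2-Aa, Pdcd1lg2 and Bdh2. Their fold over silent cells ran from 51.9 for Bdh2 to 389.5 for Atf3 in Ga. In Gc it ran from 52.9 for Pdcd1lg2 to 298.8 for Ccl4. Silent cells held few UMIs of these genes, with 5 of Atf3 and 10 of Bdh2 in Ga, and 68 of Pdcd1lg2 and 31 of Ccl4 in Gc. The log2 ratio of Atf3 in Ga had an interval of 7.37 to 10.23. Cdkn1a, which encodes the cell cycle inhibitor p21, had 112.5 CPM in responders and 0.766 CPM in silent cells of Ga, and 108.9 CPM and 1.06 CPM in Gc. Atf3, a stress-inducible transcription factor, had 71.0 CPM and 0.182 CPM in Ga, and 57.9 CPM and 0.489 CPM in Gc. These 2 genes were spread over many cells, with a Cdkn1a UMI in 45.4% and an Atf3 UMI in 37.3% of Ga responders. Ccl3 and H2-Aa were not: 18 Ga responders held Ccl3 and 29 held H2-Aa, and 5 barcodes held 69.9% and 76.3% of their UMIs.

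The 10 of lowest ratio were Oasl2, Ccdc152, Ly6c2, St8sia6, Epsti1, Il7r, Map2k6, Fam78a, Rflnb and Tdrp. Il7r, the IL-7 receptor alpha chain that naive T cells need to survive, had 73.3 CPM in responders and 1000 CPM in silent cells of Ga, and 108.5 CPM and 942.4 CPM in Gc. Epsti1, an interferon-inducible gene, had 59.6 CPM and 831.7 CPM in Ga, and 100.7 CPM and 896.8 CPM in Gc. Both genes were far lower in responders of each library. Several of the 10 rested partly on which T cells were compared: with only barcodes holding a Cd4 UMI and no Cd8a, Cd8b1 or Trdc UMI in both sets, the log2 ratio of Ly6c2 was -1.08 in Ga and -0.88 in Gc, against -3.31 and -3.47 over all. That of Il7r was then -2.88 and -2.45, against -3.77 and -3.12, and that of Epsti1 -2.65 and -2.39, against -3.80 and -3.15. Oasl2 and Rflnb in Ga and Fam78a and Map2k6 in Gc also moved toward 0 by over 1.5 times.

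**Figure D2:**
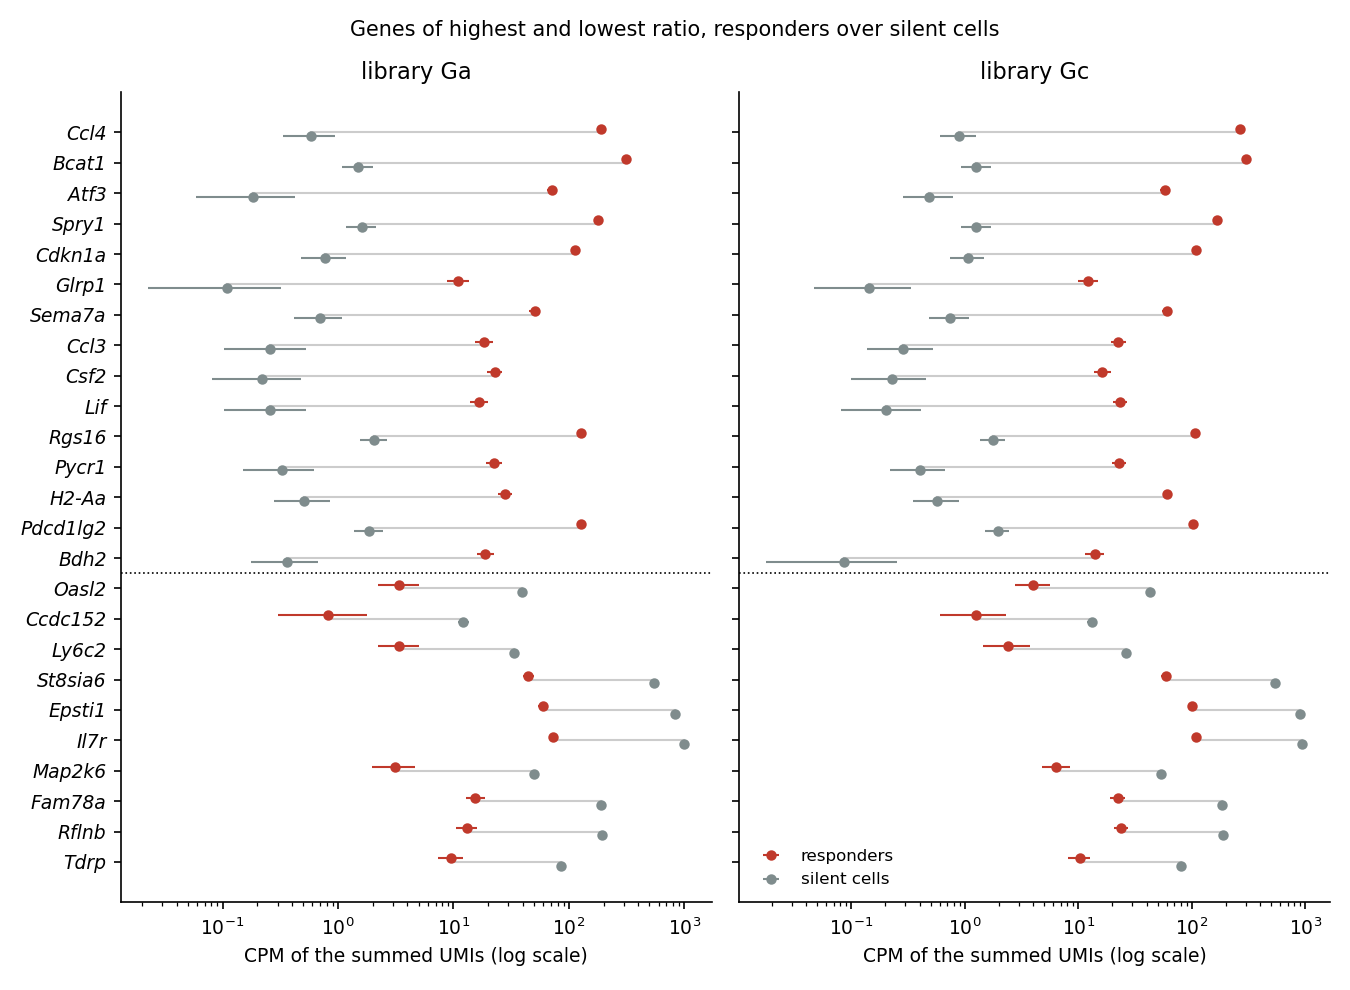
CPM of the summed UMIs (log scale) of the 15 genes of highest and the 10 of lowest ratio, for responders (red) and silent cells (grey) of Ga (left) and Gc (right). Bars are exact 95% Poisson intervals; above the dotted line every red point lies right of its grey one, as for Bcat1 at 311.9 and 1.495 CPM in Ga, and below it left, as for Il7r at 73.3 and 1000 CPM.

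Most feedback inhibitors of TCR signalling were higher in responders. Of 21 feedback inhibitors measured in both libraries, 14 were higher and 2 lower (Dusp10 and Socs3), and their summed level was 4792 CPM in responders and 1502 CPM in silent cells of Ga, and 4766 and 1595 CPM in Gc. Dusp2, a nuclear MAP kinase phosphatase, had 453.1 CPM and 56.6 CPM in Ga, and 412.1 and 47.7 CPM in Gc. Cd5, a surface receptor that dampens TCR signals, had 568.3 and 77.0 CPM in Ga, and 473.8 and 62.7 CPM in Gc. Cblb, an E3 ligase that restrains activation without costimulation, had 1686 and 727.3 CPM in Ga, and 1788 and 809.7 CPM in Gc. Rgs16, which shortens signals of chemokine receptors, and Dusp6, a phosphatase for ERK, were 63.0-fold and 18.8-fold higher in Ga. Nfkbia, the NF-kB inhibitor that NF-kB itself induces, had 419.6 and 154.6 CPM in Ga, and 406.0 and 156.4 CPM in Gc.

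Transcription factors of activation were higher as well, 13 of 23 measured in both libraries, with none lower in both. Nfkb1, the p50 precursor, had 2761 CPM in responders and 287.7 CPM in silent cells of Ga, and 2753 and 302.7 CPM in Gc. Rel, the c-Rel subunit, had 714.5 and 94.2 CPM in Ga, and 750.0 and 99.1 CPM in Gc. Myc, the driver of cell growth, had 201.2 and 6.34 CPM in Ga, and 189.5 and 5.55 CPM in Gc. Bhlhe40, a repressor that T cells need for cytokine production, was 32.7-fold and 46.5-fold higher. Ikzf1 had 691.1 and 1086 CPM in Ga, which did not reach 2-fold. Batf, Gata3 and Tbx21, named after their values were seen, did not reach 2-fold in either library.

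Genes of activated surface receptors were higher too. Of 14 costimulation and activation genes, 10 were higher in both libraries and none lower. Cd69, which holds activated T cells in tissue, had 1091 CPM in responders and 28.6 CPM in silent cells of Ga, and 1100 and 33.6 CPM in Gc, and at 4000 UMIs per cell it was found in 87.4% and 8.07% of Ga cells and in 86.7% and 8.42% of Gc cells. Tnfrsf9, the costimulatory receptor 4-1BB, was 33.8-fold and 39.1-fold higher, and Slamf1 24.6-fold and 24.9-fold. Cd28 had 353.2 and 405.8 CPM in Ga and Cd2 had 266.6 and 238.7 CPM, so the constitutive receptors of the list were near equal. Of 5 inhibitory receptors and ligands measured in both, 4 were higher: Pdcd1 (PD-1), Btla, and the PD-1 ligands Cd274 (PD-L1) and Pdcd1lg2 (PD-L2). Pdcd1lg2 had 127.2 and 1.86 CPM in Ga, and 103.3 and 1.95 CPM in Gc, while Cd274 had 312.0 and 97.6 CPM in Ga, and 296.7 and 128.1 CPM in Gc. Ctla4 had 35.5 and 39.3 CPM in Ga, and 39.9 and 43.5 CPM in Gc.

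Most cytokine genes that reached the level filter were higher in responders, and each was found in only some of the cells. Of 17 cytokine genes listed, 9 were measured in both libraries, and of these 8 were higher and none lower. Il2, Csf2 and Lif passed the filter only through the responders. Tnf, Lta and Tnfsf11 were also rare in silent cells. Before thinning, 2.63%, 3.71% and 2.57% of Ga silent cells held them, and 2.23%, 2.69% and 2.40% of those of Gc. The count of 8 is thus set at least in part by the filter and is given as a description. Ltb had 349.6 CPM in responders and 567.3 CPM in silent cells of Ga. Tnfsf8, the ligand of CD30, was found at equal depth in 52.9% of responders and 16.3% of silent cells of Ga, and in 46.3% and 19.3% in Gc. Tnf was found in 23.1% and 1.22% in Ga, and in 21.5% and 1.03% in Gc, and Lta, its neighbour on the chromosome, in 19.7% and 1.75% in Ga, and in 20.6% and 1.44% in Gc. Tnf and Lta occurred together more than their shares give: 68 Ga responders held both, where the product is 27.5, and 57 Gc responders, where it is 27.3. Secreted growth factors of T cells were rarer. Il2 was found in 1.82% of responders and 0.362% of silent cells of Ga, and in 4.05% and 0.386% in Gc. Csf2 was found in 6.28% and 0.0659% in Ga, and in 3.24% and 0.0515% in Gc. No responder held an Il4 UMI, which at a floor of 3 counts allows a share of up to 0.490% of 612 cells in Ga and 0.472% of 636 in Gc; 13 silent cells of Ga and 18 of Gc did. Before thinning, Tnf was held by 38.6% of Ga and 36.6% of Gc responders, Il2 by 3.76% and 5.50%, and Csf2 by 10.3% and 6.92%, where the 55 B-marker barcodes held them in 14.55%, 1.82% and 7.27%. The Csf2 share of Gc responders was thus no higher than that of B-marker barcodes, while silent cells held Csf2 in only 0.185% in Ga and 0.192% in Gc.

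Chemokines came from few cells. Ccl4, an inflammatory chemokine, had 191.6 CPM in responders and 0.583 CPM in silent cells of Ga, and 266.2 and 0.891 CPM in Gc, yet at equal depth only 8.595% of responders in Ga and 11% in Gc held it, against 0.231% and 0.258% of silent cells. Its variance over responders was 19.2 times its mean in Ga and 18.6 times in Gc, where the median gene had 1.19 and 1.21. Ccl3, its neighbour on the chromosome, was found in 14 Ga responders at equal depth, 12 of which also held Ccl4, and in 13 Gc responders, all of which did. Ccl5, which memory and cytotoxic T cells keep, went the other way with 26.7 and 239.1 CPM in Ga, and 41.6 and 184.9 CPM in Gc. Any chemokine of the list was held, before thinning, by 18.8% of responders and 14.04% of silent cells of Ga, and by 21.1% and 14.7% in Gc, while the B-marker barcodes held one in 25.5%, Ccl4 in 3.64% and Ccl3 in 7.27%. The shares for any chemokine and for Ccl3 thus lay below those of the B-marker barcodes and those for Ccl4, at 10.9% and 13.1% of responders before thinning, above. As a sum the 7 chemokines gave a log2 ratio of 0.22 in Ga and 1.24 in Gc. In Gc, Ccl22 added 743 UMIs from 5 responders, 524 of them from a single barcode, and without the barcodes of high UMI totals the Gc value was 0.60; without cells holding Trdc, Cd8a or Cd8b1 the values were 2.55 in Ga and 3.18 in Gc, and with silent cells matched on total UMIs they were -0.60 in Ga and 0.71 in Gc. The direction of the chemokine sum in Ga thus depended on which cells were compared.

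**Figure D3:**
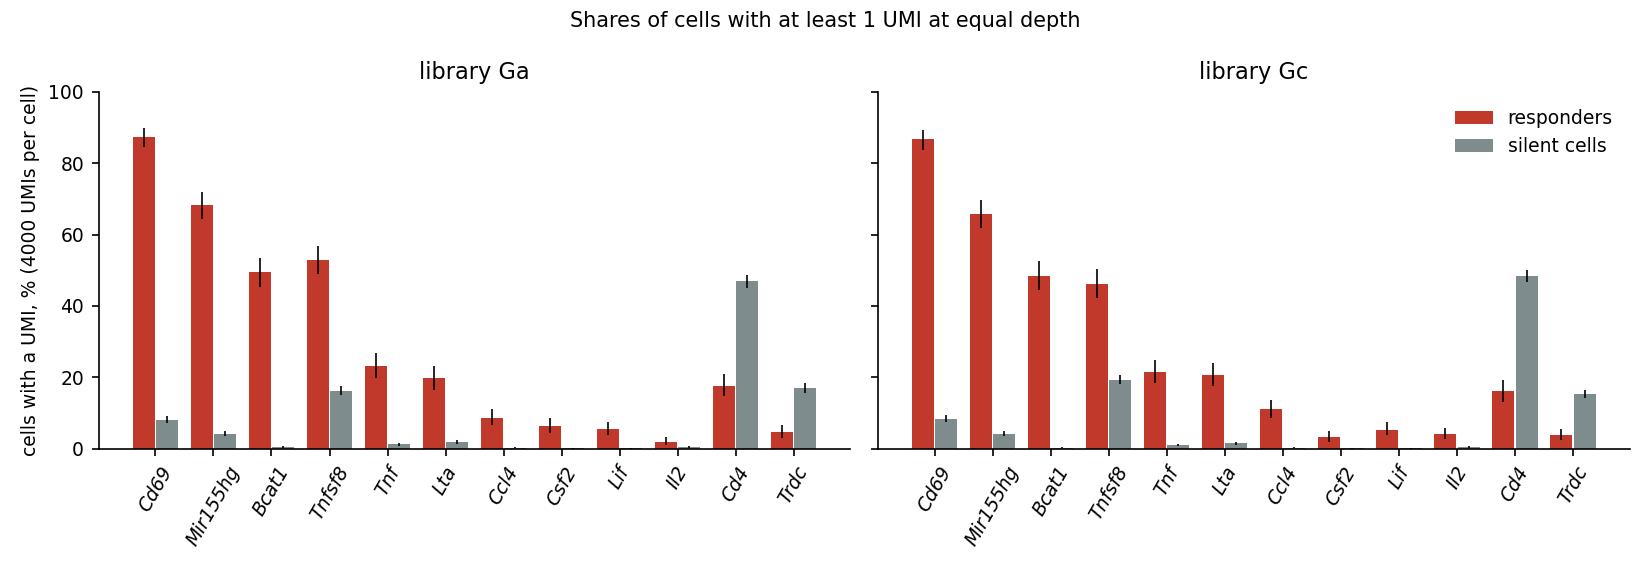
Share of cells with at least 1 UMI of each gene, after every cell was thinned to 4000 UMIs, for responders (red, left bar) and silent cells (grey, right bar) of Ga and Gc. Bars are percentages with exact 95% binomial intervals; Cd69 reached 87.4% of Ga responders and Il2 1.82%, while Cd4 and Trdc were found in fewer responders than silent cells.

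Genes of ribosome production and protein synthesis were higher almost without exception. All 17 nucleolar genes of ribosome production were higher in both libraries, with a summed level of 6205 CPM in responders and 1475 CPM in silent cells of Ga, and 6055 and 1455 CPM in Gc. Ncl, the nucleolar protein nucleolin, had 1413 and 342.0 CPM in Ga, and 1449 and 341.1 CPM in Gc. Npm1 had 1617 and 574.7 CPM in Ga, and 1538 and 564.0 CPM in Gc. Rrs1, which assembles the large ribosomal subunit, was 9.52-fold and 10.05-fold higher. Of 10 translation initiation factors 9 were higher, the exception being Eif4g1 with 248.4 and 137.6 CPM in Ga, and 238.9 and 130.2 CPM in Gc; Eif3c had 1005 and 134.4 CPM in Ga, and 920.8 and 123.3 CPM in Gc. Of 13 chaperones 11 were higher, among them the mitochondrial Hspa9 with 501.3 and 68.5 CPM in Ga, and 482.3 and 65.2 CPM in Gc, while Hspa8 had 545.7 and 455.6 CPM in Ga.

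The 4 initiation factor genes with a RefSeq promoter that holds CACGTG, the E-box that MYC binds, are shown because Myc and this list were both higher and no other list had a larger share of promoters with the motif. The capitals mark the motif with 20 bases to each side (GRCm38.p6, 1 match per gene).
Eif4a1 (chr11:69672587-69672632, minus strand): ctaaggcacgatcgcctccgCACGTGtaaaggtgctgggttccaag
Eif4e (chr3:138527020-138527065, plus strand): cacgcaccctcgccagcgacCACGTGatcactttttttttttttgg
Eif4g1 (chr16:20672653-20672698, plus strand): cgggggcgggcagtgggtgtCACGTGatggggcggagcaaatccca
Eif5a (chr11:69921435-69921480, minus strand): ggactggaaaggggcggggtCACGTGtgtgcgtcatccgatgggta
These are 4 of 8 genes of the list with a promoter, where 8.09% of all 27025 genes hold the motif. Eif4e and Eif4g1 hold 2 matches each, and Eif4g1 is the one member that was not 2-fold higher. Among the nucleolar genes, which were higher without exception, 2 of 12 hold it. Of other lists with a higher sum, survival and death genes hold it in 3 of 9, chaperones in 1 of 9, and growth transporters and enzymes in 0 of 12. As the list shown was picked for its share, that share is a description, and a link to MYC was not tested.

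Transporters and enzymes that supply growth were higher. Of 16, 14 were higher in both libraries, with a summed level of 3533 CPM in responders and 442.3 CPM in silent cells of Ga, and 3418 and 416.2 CPM in Gc. Slc7a1, the arginine and lysine transporter, had 627.0 and 58.2 CPM in Ga, and 635.8 and 51.8 CPM in Gc. Slc3a2, the heavy chain of the large neutral amino acid transporter, had 324.3 and 47.0 CPM in Ga, and 299.3 and 45.1 CPM in Gc. Psat1, an enzyme of serine synthesis, was 37.98-fold and 32.1-fold higher, Mthfd1l, a mitochondrial folate enzyme, 5.40-fold and 5.87-fold, and Srm, which makes spermidine, 20.2-fold and 22.8-fold. The 2 that did not reach 2-fold were the glucose transporters Slc2a1, with 26.0 and 17.1 CPM in Ga, and Slc2a3, with 21.2 and 29.1 CPM. Glycolysis enzymes differed little as a list, with log2 ratios of 0.26 and 0.32; Hk2 was 48.5-fold higher in Ga and 26.2-fold in Gc, Pgam1 was higher, Hk1 and Gpi1 were lower, and Gapdh had 218.0 and 138.5 CPM in Ga. Of 10 genes of cholesterol synthesis and uptake 4 were higher in both, among them Sqle, Idi1 and Cyp51.

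Survival genes were higher, while mitotic genes were near the limit of measurement in both sets. Of 9 survival and death genes 6 were higher in both libraries and none lower. Bcl2l1 (BCL-XL) had 346.7 CPM in responders and 19.0 CPM in silent cells of Ga, and 366.4 and 18.7 CPM in Gc. Bcl2a1b had 323.8 and 15.02 CPM in Ga and Bcl2a1d 199.7 and 7.80 CPM, 2 near-identical copies between which reads cannot be divided with certainty. Pim1, a kinase of survival, had 694.3 and 232.8 CPM in Ga, and 728.2 and 241.5 CPM in Gc. The G1 cyclin Ccnd2 had 375.1 and 82.7 CPM and the G1 kinase Cdk6 had 268.1 and 52.1 CPM in Ga. Of 12 genes of G1 and S-phase entry only those 2, Cdk4 and Pcna were higher in both libraries. The cyclin gene Ccne1 was below the level at which a call is made. The list's sum was slightly lower in responders, at 2158 and 2471 CPM in Ga, and 2156 and 2523 CPM in Gc. The 8 mitotic genes summed to 9.11 and 11.2 CPM in Ga, and to 10.1 and 18.9 CPM in Gc. At 4000 UMIs per cell Mki67 was found in 2 of 605 responders and 21 of 3035 silent cells of Ga, and in 1 responder and 35 of 3882 silent cells of Gc.

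Of the genes of the resting state, some were lower and some near equal. Of 14 genes of naive state and homing 9 were lower in both libraries and none higher in both. Klf2, the factor that keeps T cells quiescent and circulating, had 81.7 CPM in responders and 625.3 CPM in silent cells of Ga, and 105.8 and 559.8 CPM in Gc. Its target S1pr1, the receptor for exit from lymph nodes, was likewise lower, with 65.0 and 578.0 CPM in Ga, as was Lef1 with 480.9 and 1676 CPM. Bach2 had 4050 and 2653 CPM in Ga, and 4013 and 3032 CPM in Gc, and Satb1 2890 and 1849 CPM in Ga, and 3036 and 2135 CPM in Gc, so the log2 ratio of the list's sum was only -0.39 in each library. Among the genes that restrain division, Cdkn1b, Pdcd4 and Tob1 were lower in both and Tob2 was higher in both; Btg1 had 1231 and 814.3 CPM in Ga. The cytoskeleton list was near equal, at 10654 and 9957 CPM in Ga, and 10044 and 8938 CPM in Gc, with Actb and Actg1, the genes of beta and gamma actin, the 2 of 11 members higher in both.

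Receptors for cytokines other than Il7r were lower in part. Of 15 cytokine receptor and JAK-STAT genes 6 were lower in both libraries and 2 higher. Ifngr1, the interferon gamma receptor chain, had 84.5 CPM in responders and 701.0 CPM in silent cells of Ga, and 113.9 and 739.2 CPM in Gc. Jak1, the kinase that most of these receptors share, had 372.7 and 961.4 CPM in Ga, and 408.2 and 947.8 CPM in Gc. Il21r and Stat5a were the 2 higher genes, Il21r with 217.3 and 59.8 CPM in Ga, and 180.6 and 59.4 CPM in Gc.

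Interferon-inducible genes were low across the list. Of 15 interferon gamma type genes 13 were lower in both libraries and none higher, with a summed level of 828.3 CPM in responders and 2782 CPM in silent cells of Ga, and 895.6 and 3106 CPM in Gc. Irgm1, a GTPase of the immunity-related family, had 25.3 and 144.2 CPM in Ga, and 32.0 and 157.0 CPM in Gc. Iigp1, another of that family, had 83.2 and 316.8 CPM in Ga, and 75.4 and 412.6 CPM in Gc. Irf1, an interferon-induced transcription factor, had 97.1 and 248.8 CPM in Ga, and 114.6 and 280.1 CPM in Gc. The exceptions were Gbp5, with 32.9 and 42.2 CPM in Ga, and 39.8 and 61.5 CPM in Gc, and Socs1, with 71.5 and 61.1 CPM in Ga, and 75.1 and 65.6 CPM in Gc. Of 7 type I interferon type genes 6 were lower in both, with a summed level of 120.9 and 329.2 CPM in Ga, and 127.1 and 336.3 CPM in Gc, Isg15 having 9.52 and 11.1 CPM in Ga, and 9.30 and 9.77 CPM in Gc.

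Promoters of these lists are shown because many hold the core of the interferon-stimulated response element, GAAA followed by any 2 bases and GAAA again. Of 12 interferon gamma type genes with a RefSeq promoter 8 hold a match on either strand, and of 6 type I genes 4 do. Of all 27025 genes 3.99% hold one. The type I genes with a match are Ifit1, Ifit3, Isg15 and Rsad2, of which only Ifit3 was called lower. Ifit1 and Rsad2 were below the level at which a call is made. The lower type I genes Oasl2 and Irf7 hold no match. The capitals mark the match with 20 bases to each side on the strand named (GRCm38.p6).
Gbp2 (chr3:142620584-142620633, plus strand): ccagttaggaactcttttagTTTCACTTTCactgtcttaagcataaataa
Gbp3 (chr3:142559979-142560028, plus strand): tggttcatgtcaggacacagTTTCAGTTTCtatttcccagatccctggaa
Gbp5 (chr3:142496749-142496798, plus strand): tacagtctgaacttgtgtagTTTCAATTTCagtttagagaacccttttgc
Gbp7 (chr3:142530263-142530312, plus strand): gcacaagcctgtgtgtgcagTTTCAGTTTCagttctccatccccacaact
Igtp (chr11:58199502-58199551, plus strand): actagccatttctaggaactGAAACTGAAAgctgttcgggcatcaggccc
Irgm1 (chr11:48871421-48871470, minus strand): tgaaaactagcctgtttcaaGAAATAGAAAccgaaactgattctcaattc
Irgm2 (chr11:58214893-58214942, plus strand): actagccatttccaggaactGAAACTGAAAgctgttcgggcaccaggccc
Socs1 (chr16:10785590-10785639, minus strand): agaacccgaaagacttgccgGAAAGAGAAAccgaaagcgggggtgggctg
Isg15 (chr4:156200867-156200916, minus strand): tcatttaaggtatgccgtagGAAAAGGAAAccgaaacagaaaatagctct
Gbp5, Socs1 and Isg15, the members that were not 2-fold lower, hold the letters too, so holding them did not separate the lower members from the rest. The windows of Igtp and Irgm2 are near copies of each other, and reads of these paralogs may be divided with error.

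Mir155hg, the host RNA of miR-155, had 714.2 CPM in responders and 14.8 CPM in silent cells of Ga, and 721.0 and 14.5 CPM in Gc (chromosome 16, 84703167 to 84715245, plus strand). The kit counts the host RNA and not the mature miRNA. miR-155 is known to promote T cell activation, and its mature forms are shown as the sequence this host gene encodes, with the seed (bases 2 to 8) in capitals (RefSeq, GRCm38.p6, plus strand).
mmu-miR-155-5p: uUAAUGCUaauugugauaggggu
mmu-miR-155-3p: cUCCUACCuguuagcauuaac
At equal depth the host RNA was found in 68.3% of responders and 4.12% of silent cells of Ga, and in 65.9% and 4.22% in Gc. Of the 55 B-marker barcodes 23.6% held it before thinning. Mir17hg had 31.8 and 16.4 CPM in Ga, and 33.5 and 16.3 CPM in Gc.

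**Figure D4:**
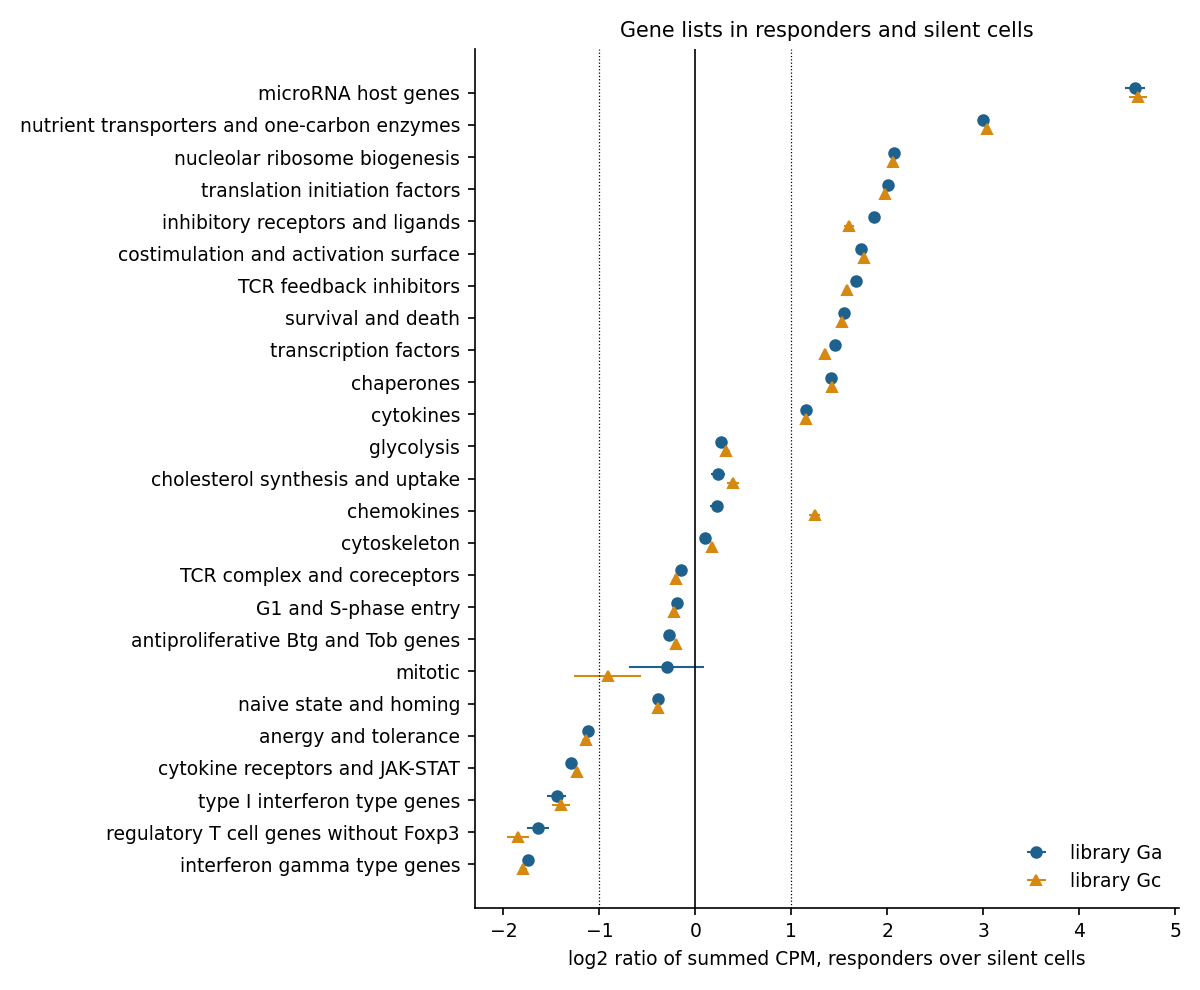
log2 ratio of summed CPM, responders over silent cells, of the 25 lists of response genes in Ga (circles) and Gc (triangles), with 95% intervals for counting error. The dotted lines mark 2-fold; the microRNA host genes stood at 4.58 and 4.62, and interferon gamma type genes at -1.75 and -1.79, and the 2 libraries part visibly for chemokines (0.22 and 1.24) and mitotic genes.

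Genes of the receptor complex differed in both directions. Of 7 genes of the TCR complex and its coreceptors measured in both libraries, leaving out the Cd3 genes of the rule, Lcp2 (SLP-76) and Zap70 were higher and Cd247 and Cd4 lower. Cd247, the zeta chain, had 373.1 CPM in responders and 1393 CPM in silent cells of Ga, and 434.7 and 1427 CPM in Gc. Lcp2 had 812.8 and 260.1 CPM in Ga, and 756.2 and 257.9 CPM in Gc. Lck had 284.4 and 335.3 CPM in Ga. Cd4 encodes the coreceptor that gives CD4 T cells their name. It was found at equal depth in 17.7% of responders and 46.9% of silent cells of Ga, and in 16.02% and 48.4% in Gc. Before thinning, 32.5% of Ga and 34.6% of Gc responders held a Cd4 UMI, at median depths of 11234 and 10870 UMIs, against 8 of the 55 B-marker barcodes (14.55%) at a median of 13377. The responders' Cd4 RNA thus lay above that background.

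Markers of gamma-delta and innate-like T cells were lower in the responders as a sum, and those of CD8 cells differed little in Gc. The 10 genes of gamma-delta and innate-like T cells summed to 59.9 CPM in responders and 262.4 CPM in silent cells of Ga, and to 47.4 and 222.6 CPM in Gc, and Trdc was found at equal depth in 4.63% and 17.0% in Ga, and in 3.72% and 15.3% in Gc. Cd8a or Cd8b1 was found in 0.992% and 2.93% in Ga, and in 2.27% and 2.58% in Gc; before thinning the Gc shares were 5.35% and 5.04%. Fcer1g, a signalling chain of innate-like cells, was higher in Gc, with 11.4 and 4.43 CPM. It was held by 14 Gc responders, and 5 barcodes held 90.1% of its UMIs. Without the barcodes of high UMI totals it was lower there, with 1.25 and 3.39 CPM. Of the 9 responders outside Ga and Gc, 4 held Trdc. When both sets were limited to Cd4-positive barcodes with no Cd8a, Cd8b1 or Trdc UMI, the log2 ratio of the chemokine list was 2.84 in Ga and 3.46 in Gc, that of regulatory T cell genes was -0.99 in Gc against -1.85 over all, and that of anergy and tolerance genes was -0.92 in Ga and -0.97 in Gc. The last 2 lists thus no longer reached 2-fold in those libraries. The share of responders was 7.16% in Ga and 5.91% in Gc among such barcodes, and 13.97% and 11.4% among barcodes with no Trdc, Cd8a or Cd8b1 UMI and no demand on Cd4.

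Genes tied to tolerance were mixed. Izumo1r, the folate receptor FR4 of anergic and regulatory cells, had 98.1 CPM in responders and 7 CPM in silent cells of Ga, and 61.6 and 5.83 CPM in Gc, and Ndrg1 45.2 and 8.82 CPM in Ga, and 51.9 and 10.6 CPM in Gc. Dgka, a kinase that ends diacylglycerol signals and marks anergic cells, was lower, with 130.7 and 822.4 CPM in Ga, and 169.7 and 827.7 CPM in Gc, and Nt5e (CD73) was lower too. Of the genes of regulatory T cells other than Foxp3, Ikzf2 had 56.6 and 199.4 CPM in Ga, and 42.7 and 225.8 CPM in Gc, and Nrp1 19.2 and 82.7 CPM in Ga, and 26.1 and 65.6 CPM in Gc. Gpr83 had 8.84 and 0.292 CPM in Ga, and 5.78 and 0.345 CPM in Gc, below the level at which a call is made.

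RNA of MHC class II was found in a subset of the responders. The 4 genes H2-Aa, H2-Ab1, H2-Eb1 and Cd74 summed to 129.6 CPM in responders and 2.95 CPM in silent cells of Ga, and to 280.2 and 4.48 CPM in Gc. A UMI of any was held by 113 of 612 responders in Ga and 118 of 636 in Gc (18.5% and 18.6%), against 2.44% and 3.24% of silent cells. The UMIs were concentrated, with 79.3% of the Cd74 UMIs of Ga and 64.2% of those of Gc in 5 barcodes. Without barcodes above 2.5 times the median UMIs, the log2 ratio of Cd74 was 3.86 in Ga and 2.53 in Gc. Among markers of cells that make class II, Zbtb46 of dendritic cells had 12.1 and 2.92 CPM in Ga, and 20.2 and 3.48 CPM in Gc. The dendritic list as a whole had 14.01 and 4.74 CPM in Ga, and 23.7 and 4.83 CPM in Gc, but was mostly Zbtb46. That gene gave 89 of the list's 103 responder UMIs in Ga and 161 of 189 in Gc. Flt3, Xcr1, Clec9a, Itgax and Siglech were below the level at which a call is made. The 7 B cell genes had 34.1 and 167.1 CPM in Ga, and 109.8 and 154.0 CPM in Gc. The 10 fibroblast genes summed to 6.12 and 5.03 CPM in Ga, and 5.40 and 5.11 CPM in Gc, and the 8 myeloid genes to 13.9 and 10.5 CPM in Ga, and 12.4 and 13.2 CPM in Gc. The mesothelial and epithelial genes summed to 2.45 and 1.02 CPM in Ga, and 1.26 and 1.01 CPM in Gc, and the natural killer genes to 8.03 and 13.9 CPM in Ga, and 4.40 and 10.0 CPM in Gc. Of the defining markers, Clec9a, Lum and Msln had no UMI in either set of either library. In Gc responders the B cell genes Ebf1, Cd79a and Ms4a1 had 36.7, 9.80 and 6.03 CPM, against 0.977, 3.13 and 0.345 CPM in silent cells, while Ighm was lower; 5 barcodes held 82.2% of the Ebf1 UMIs. Haemoglobin genes summed to 40.8 CPM in responders and 1513 CPM in silent cells of Ga, and to 1596 and 1309 CPM in Gc. In Gc responders the top barcode of Hba-a1, Hba-a2 and Hbb-bt held 97.5%, 96.1% and 97.9% of their UMIs. Without the barcodes of high UMI totals, their log2 ratios in Gc were -4.01, -3.51 and -3.87. The share of these values that comes from second cells in 1 droplet or from free RNA was not tested.

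Around the threshold and inside it, some levels went with the number of rule genes detected and others did not. Bcat1 had 127.5 CPM in Ga barcodes with 3 rule genes, just outside, and 176.9, 304.2, 367.3, 327.8 and 404.8 CPM in those with 4, 5, 6, 7 and 8; in Gc it had 96.6 CPM outside and 209.4, 316.9, 308.1, 353.4 and 354.0 CPM inside. Tnf had 14.2 CPM outside and 26.3, 46.2, 96.4, 212.7 and 275.9 CPM inside in Ga, and 10.2 CPM outside and 20.7, 57.7, 84.5, 191.6 and 285.0 CPM inside in Gc. Tnf thus spanned about an order of magnitude inside the rule, and Bcat1 far less. Mir155hg had 631.5 CPM at 4 genes and 649.5 CPM at 8 in Ga, and 452.9 CPM at 4 and 838.7 CPM at 8 in Gc. Klf2 had 170.7 CPM outside and 119.7 CPM at 4 genes in Ga, and 61.2 CPM at 8. Cd274 had 90.2 CPM outside and 148.3 CPM at 4 genes in Ga, and 492.0 CPM at 8. The interferon gamma type list had 1212 CPM outside and 950.7, 740.4, 619.0, 1085 and 725.0 CPM inside in Ga, with no steady order, against 2782 CPM in silent cells. Barcodes with 4 genes had a median of 11003 UMIs in Ga and those with 8 had 11528, while barcodes with 3 had 9957. In Gc the medians were 10588, 10886 and 9898, so the median depth differed little inside the rule. The mean depth was higher at 8 genes, and summed levels weigh deep barcodes more. In Gc the 153 barcodes with 4 genes held 1790502 UMIs and the 77 with 8 held 1231686. In Ga 116 held 1328556 and 58 held 768294. These levels follow from the variable that chose the cells and are given as a description.

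**Figure D5:**
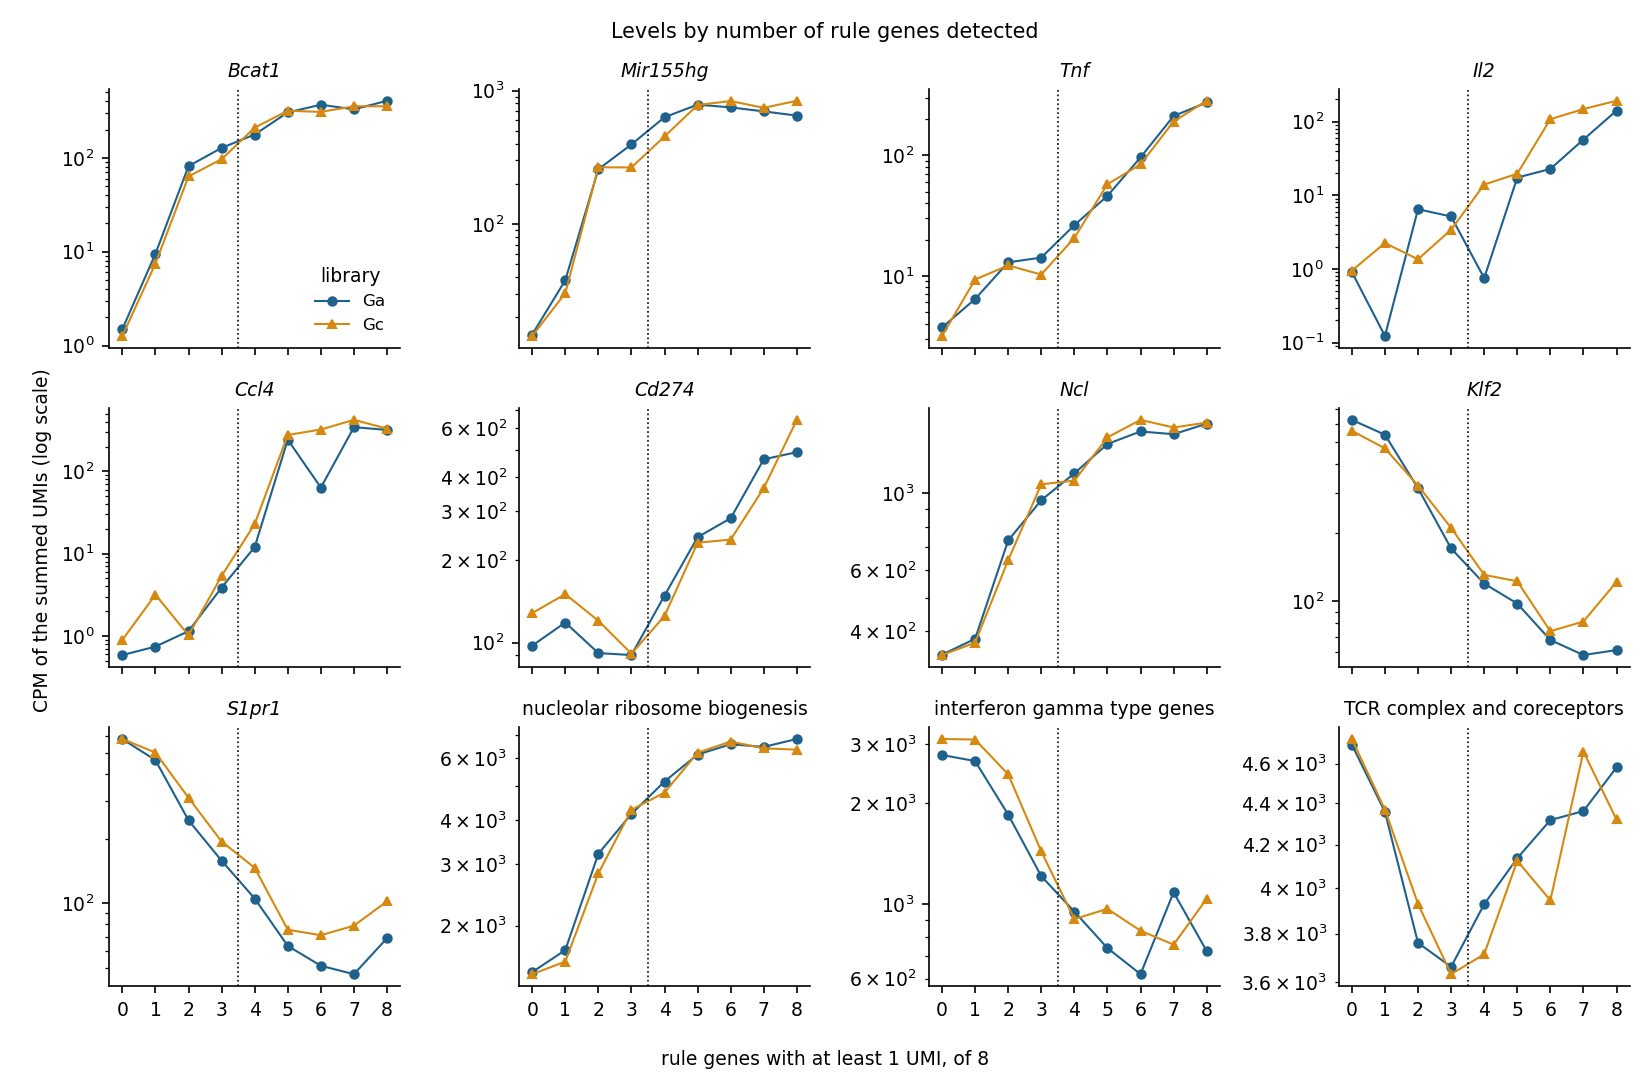
CPM of the summed UMIs (log scale) of 9 genes and 3 lists in barcodes grouped by how many of the 8 rule genes were detected, in Ga (circles) and Gc (triangles). Responders lie right of the dotted line; Tnf climbed to 275.9 CPM in Ga and 285.0 CPM in Gc at 8 genes while Mir155hg in Ga was 631.5 CPM at 4 and 649.5 CPM at 8, and Klf2 was 61.2 CPM at 8.

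The responders of the 2 libraries were close to each other. Within responders, 1.15% of 9382 genes were at least 2-fold higher in Gc than in Ga and 0.234% lower. The summed level of chemokines differed between the libraries by 0.70 on the log2 scale, and the other lists by at most 0.17 in size. Bcat1 had 303.1 CPM in Gc and 311.9 CPM in Ga, and Myc 189.5 and 201.2 CPM. Il2 had 88.3 CPM in Gc and 37.7 CPM in Ga, a log2 difference of 1.23 (95% interval 1.03 to 1.44), from 35 responders in Gc and 23 in Ga; 5 barcodes held 64.6% and 75.5% of its UMIs. The 10 genes of largest ratio were Cntn1, Cxcl9, Bcar3, Mreg, Syn3, Ebf1, Hba-a2, Hbb-bt, Hba-a1 and Lingo2. Of these, Cxcl9 was higher in Ga, with 187 of its 224 UMIs in a single barcode, and the others in Gc. A single Gc responder held 96.1% of the Hba-a2 UMIs, and 141 of the 183 Cntn1 UMIs of Gc responders lay in 1 barcode. Without the barcodes of high UMI totals, an alternative chosen after the data were seen, the 10 largest included Penk, Gpm6b, Nkg7, Cxcl10, Akr1c18, Dlg2, Dach2, Hdac9 and Gstp1, and 33 of 9218 genes were higher and 18 lower. Gstp1, a glutathione transferase, was spread over the most cells of these, with 38 of 585 responders in Gc and 99 of 589 in Ga and no more than 4 UMIs in any.

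The receptor segments of OT-II were read in few cells. The OT-II alpha chain uses Trav14 and its beta chain Trbv12, segments of families whose copies reads cannot always tell apart. Any Trav14 segment was found in 7.68% of responders and 3.40% of silent cells of Ga, and in 6.45% and 2.74% in Gc; at equal depth the shares were 3.14% and 2.01% in Ga, and 2.91% and 1.29% in Gc. Any other Trav segment was also found more in responders, in 43.8% and 25.9% of Ga cells and in 41.0% and 21.2% of Gc cells. Any other Trbv segment was found less in responders, in 14.7% and 18.0% in Ga, and in 13.1% and 18.6% in Gc. Trbv12-1 or Trbv12-2 was found in 23.9% and 24.4% in Ga, and in 17.0% and 18.6% in Gc, while 12.7% of the 55 B-marker barcodes held one. Both chains were read in 13 of 612 responders and 31 of 3234 silent cells of Ga, and in 10 of 636 and 21 of 4163 of Gc.

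The 9 responders of Gb, Ha and Hb resembled those of Ga and Gc in some genes. Cd69 was held by 4 of 5 in Gb, 3 of 3 in Ha and 1 of 1 in Hb. Spry1 was held by 3 of 5 in Gb and by 1 of 3 in Ha. No Bcat1 UMI was found in any of them, which allows up to 61.1 CPM in Gb, 90.7 CPM in Ha and 270.7 CPM in Hb at a floor of 3 counts, from only 1 to 5 cells in each. Cd4 was held by 5 of 5 in Gb, with 284.9 CPM, by 1 of 3 in Ha, with 60.4 CPM, and by 0 of 1 in Hb, against 60.7 CPM in Ga and 63.1 CPM in Gc responders.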

How the data were processed

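The deposited matrices hold counts: whole UMIs per gene and barcode for 32285 genes, as the authors deposited them. Cell Ranger 6.0.0 and mm10 are named in the submitters' processing notes, while the matrix headers name cellranger 7.1.0, per the file headers; the sources used here do not give whether introns were counted or depth was equalised. RNA was measured in 5 libraries, told apart by matrix and barcode suffix, of 27339447 to 61279131 UMIs each.

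Barcodes with under 500 UMIs, under 300 genes or over 10% mitochondrial UMIs were left out. UMIs were summed over the responders and over the silent cells of each library and scaled to CPM; ratios carry exact binomial intervals, levels exact Poisson intervals and shares Clopper-Pearson intervals, all at 95% and for counting error only. A floor is 3 counts. With no replicate, no test was run, and p-values are not given. Shares at equal depth came from cells thinned to 4000 UMIs, which left out 7 responders and 199 silent cells of Ga, and 18 and 281 of Gc. No doublet caller was run. Barcodes over 2.5 times the median UMIs, and those with at least 2 UMIs of other cells' markers, were left out as alternatives. Those markers were the B cell, myeloid, dendritic, MHC class II and fibroblast genes. The CPM and ratio steps were checked on simulated counts. numpy 2.4.6, scipy 1.17.1, pandas 2.3.3 and matplotlib 3.10.9 were used.

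The members and the gene lists were chosen with earlier results of these data known. Named genes are the 15 of highest and 10 of lowest ratio, by the value nearest 0 over Ga and Gc at a mean CPM of at least 5, leaving out the 8 rule genes, the Cd3 genes, Foxp3, mitochondrial and ribosomal protein genes, receptor variable segments and unnamed models. They also include up to 4 members of each list by responder CPM and up to 3 by ratio, Bcat1, Spry1, the OT-II segments, markers of other cells, and the 10 genes of largest ratio between the libraries' responders. Others, such as Klf2, S1pr1, Tnf, Lta, Gbp5, Socs1 and Isg15, were named after their values were seen. A few genes that these rules name are not reported here. Gene coordinates are GRCm38; promoters and miRNAs are RefSeq's for GRCm38.p6. Promoters were searched for 6 motifs on both strands, namely AP-1, E-box, interferon-stimulated, cAMP, amino acid and NF-kB elements, of which the first 3 are given. Alternatives changed the rule to 3 or 5 genes, the cells compared, the depth, the scaling and the filters.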

Additional observations from a re-analysis of the deposited data

How the results depend on the processing

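No paired analysis was possible because the labels give 1 sample per group and tie no library to a sample. No list ratio of 2-fold or more turned its direction under an alternative that gave a value. Nor did any ratio of the 15 highest and 10 lowest genes. Some other genes were followed only without barcodes of high UMI totals. The log2 ratios of Ebf1, Fcer1g, Ccl22 and Cd79a in Gc then turned to -1.67, -1.44, -1.49 and -0.43, and that of Cxcl10 in Ga to -0.79. Others, such as Myc and Il2, kept their direction. Without a filter on mean CPM, 4325 genes were higher in Ga and 4335 in Gc, and 4445 and 4261 lower; at a mean CPM of 20, 1017 and 878 were lower. The responder share of Ga and Gc was 7.157% and 5.911% with Cd4-positive barcodes without Cd8a, Cd8b1 or Trdc, 14.64% and 12.78% at 3 rule genes, 9.722% and 7.689% at 5, 9.052% and 6.997% when members were chosen after thinning, 14.49% and 11.74% without barcodes holding other cells' markers, and 13.97% and 11.4% without Trdc, Cd8a or Cd8b1, an alternative chosen after the data were seen. The Ha share was 0.2195% at 3 rule genes, and the Hb share was 0 under 3 of these choices of cells. With thinning, the OT-II alpha share was 3.14% in responders and 2.01% in silent cells of Ga, and 2.913% and 1.288% in Gc, and the beta share 9.587% and 12.88% in Ga, and 6.149% and 9.892% in Gc. In Cd4-positive cells the beta share was 28% in Ga responders, and 23.5% in responders and 20.05% in silent cells of Gc. With thinning, any chemokine was held by 13.88% and 10.87% in Ga, and 14.72% and 11.08% in Gc, and any of Il2, Ifng, Il3, Il4, Il13, Il21 and Csf2 by 8.264% and 0.8567% in Ga, and 7.767% and 0.9789% in Gc, against 13.73% and 1.886%, and 12.11% and 1.994%, unthinned.

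Of 33 list ratios of 2-fold or more, 30 stayed so in Cd4-positive cells, 31 at 3 rule genes, 32 with thinning, and 33 at 5 rule genes. Those that did not were chemokines in Gc under 6 alternatives, cytokines in Gc at 3 rule genes (0.998), and anergy genes and, in Gc, regulatory genes in Cd4-positive cells. Mitotic genes in Gc were at 1.27 at 3 rule genes and -2.05 with silent cells matched on total UMIs, against -0.91. The log2 ratio of H2-Aa was 4.85 in Ga and 0.05 in Gc without barcodes holding other cells' markers, against 5.79 and 6.72. H2-Aa is itself among those markers, so that filter takes its UMIs out by design. The fall says nothing on which cells they came from. The causes of these differences were not tested. Depth limits genes at few UMIs, as mitotic genes, Il4 and the 9 responders of Gb, Ha and Hb.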

Other observations

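Some genes outside the comparisons above were spread very unevenly over responders. Over genes with at least 0.1 UMIs per responder, the variance over the mean was 13.5 for Kcnq5 in Ga and 14.01 in Gc, where the median gene had 1.19 and 1.21. Ccl4 and Il2 were held together, at equal depth, by 3 Ga responders, where the product of the shares gives 0.946, and by 9 Gc responders, where it gives 2.75. Bcat1 and Slc7a5, the light chain of the large neutral amino acid transporter, were held together by 178 Ga responders against 146.8 and by 180 Gc responders against 155.8.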
